A study of Mus musculus with 6 samples.

Results

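Macroautophagy encloses cytoplasm in a double membrane, the autophagosome, and delivers it to lysosomes, and mitophagy is the same process directed at mitochondria. The genes described here are 41 components of this machinery, taken as the rows of the deposited gene table whose symbol is on a list of core autophagy and mitophagy genes, out of 24411 rows in all. They were sorted into 8 groups by role: the ULK initiation complex, the class III PI3-kinase complexes, membrane supply and lipid transfer, the conjugation enzymes, the Atg8 family, cargo receptors, mitophagy genes and transcription factors. Membership followed the symbol alone, with no threshold on a measured value.

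RNA was sequenced from the extensor digitorum longus (EDL), a hindlimb muscle made mostly of fast-twitch fibres, of 3 mAktDKO mice and 3 control mice. Both groups were 50 weeks old and of the C57BL/6J strain, and both carried floxed Akt1 and Akt2 alleles (Akt1/2-floxed). The mAktDKO mice (Mlc1f-Cre:Akt1/2-floxed) had in addition a Cre recombinase driven from the Mlc1f locus, a myosin light chain gene of fast fibres. The deletion is therefore aimed at mature fast fibres, and precursor cells and the other cell types of the muscle are not its target. Each library was taken as 1 mouse, and there was no group with Cre and without floxed alleles. The question put to these genes is which of them differed in RNA level between muscle of mice with and without the Cre that targets Akt1 and Akt2.

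Akt restrains autophagy in muscle by more than one route. It keeps the FoxO transcription factors out of the nucleus, and through mTORC1 it holds down both the ULK kinase and TFEB, a transcription factor of lysosomal and autophagy genes. Initiation by the ULK complex leads to local production of phosphatidylinositol 3-phosphate by the class III PI3-kinase, after which the conjugation enzymes attach Atg8 proteins (LC3 and GABARAP) to the growing membrane, where cargo receptors dock. RNA levels do not measure the flux through this pathway.

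Total estimated counts per mouse ran from 13738795 to 15445523, and a level of 3 counts corresponded to 0.194 to 0.218 CPM, counts divided by the library size in units of 1e6. All levels below are CPM after TMM scaling, which corrects for differences in library composition, and differences are log2 fold changes of mAktDKO over control. Akt2, a check of the labels, read 51.3, 49.1 and 52.7 CPM in mAktDKO mice 1, 2 and 3 and 172, 133 and 142 CPM in the control mice numbered 2, 3 and 4 in the table, a log2 fold change of -1.55 with an adjusted p of 0.000923. Akt1 read 58.9, 56.7 and 51.3 against 66.4, 65.5 and 66.5 CPM, a log2 fold change of -0.25 with an adjusted p of 0.114, and gene-level counts do not separate floxed from other exons. Adjusted p-values below come from the quasi-likelihood test of edgeR, adjusted by the Benjamini-Hochberg procedure over all 12892 genes tested. They weigh the difference between the groups against the spread between mice, which edgeR estimates partly by sharing across genes. A gene was called where its adjusted p was under 0.01.

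Control mouse 2 stood apart. It had the highest level of the 6 mice for 24 of the 41 genes and the highest level of the 3 controls for 28, and its median deviation from each gene's 6-mouse mean was 0.17 on the log2 scale, against -0.08 to 0.03 in the other 5 mice. Its counts differed from those of controls 3 and 4 by a chi-square per degree of freedom of 26.2 and 25.4, against 10.2 between controls 3 and 4 and 7.22 to 14.2 among the mAktDKO mice. Without it 27 of the 41 fold changes moved by over 1.5 times or changed sign, and values for those genes are given both ways below.

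**Figure D1:**
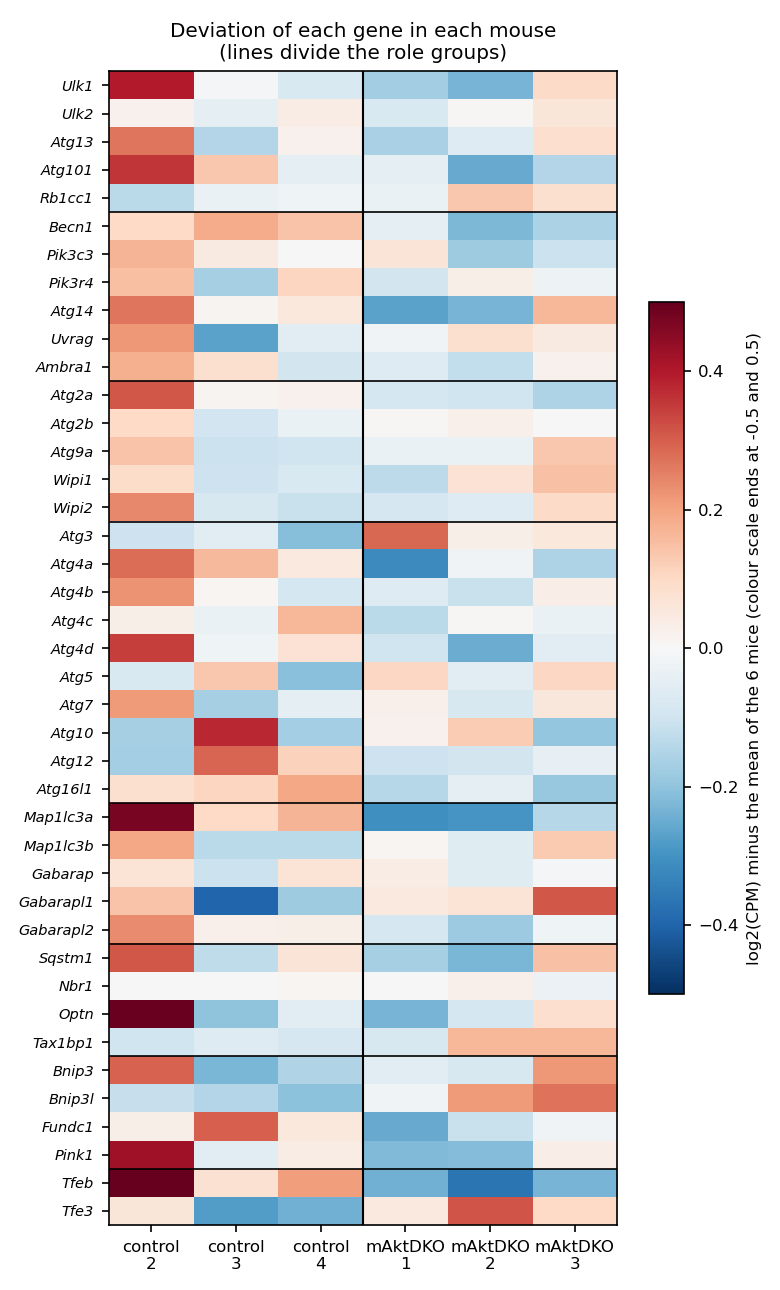
Level of each of the 41 genes (rows, by role) in each of the 6 mice (columns), as log2 CPM minus the gene's mean over the mice, with colours saturating at -0.5 and 0.5. The control 2 column is red in most rows, and the rows of Tfeb and Map1lc3a are red in all controls and blue in all mAktDKO mice.

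The muscle marker genes were those of fast fibres, with summed levels of 107000 to 118000 CPM in mAktDKO and 121000 to 132000 CPM in control. With TMM scaling 9 of 9 fast-fibre markers had negative fold changes, from -0.79 (Myh2) to -0.02 (Myh4). Markers of cells outside the fibres leaned the other way. Fold changes were positive for 6 of 6 fibro-adipogenic markers (summed 18300 to 21800 CPM in mAktDKO, 7300 to 18400 in control), 7 of 7 macrophage and leukocyte markers (103 to 129 against 67.2 to 111), 5 of 5 adipocyte markers (149 to 232 against 128 to 156) and 4 of 4 tendon markers (1160 to 1690 against 891 to 1190). They were also positive for 5 of 6 slow-fibre markers (426 to 914 against 363 to 580), 4 of 6 endothelial markers (441 to 519 against 374 to 485), 3 of 4 satellite cell markers (81.0 to 90.6 against 77.0 to 77.3), 3 of 4 pericyte and smooth muscle markers (532 to 611 against 465 to 543) and 3 of 4 Schwann cell markers (233 to 317 against 212 to 249). Some sums were mostly a single gene. For satellite cells this was Sdc4, with means of 77.2 CPM in mAktDKO and 71 CPM in control, while Pax7 was at 0.08 and Chrdl2 at -0.22. For fibro-adipogenic cells it was Col1a1, with means of 16900 and 11100 CPM. None of these 55 markers was at 0 in any mouse. Their sums and fold changes are given with TMM scaling only, and scaling by library totals moved the median of all genes from 0.02 to 0.16. By edgeR 0 of the 55 were called at an adjusted p below 0.01. An unadjusted p below 0.05 was found for 23 of the 55, a larger share than the 24.5% of all genes. At 0.01 DESeq2 called 3.55% of the genes it gave an adjusted p, and a larger share of the markers, 6 of the 55. Of these Myh1, Tnni2 and Pvalb of fast fibres were lower and Dcn, Tnmd and Fmod of connective tissue and tendon higher. In bulk muscle, fewer cells of a type and less RNA per cell cannot be told apart, and the part of cell composition in the values below was not tested. The lowest fibro-adipogenic sum, 7300 CPM, was that of control mouse 2, against 15800 and 18400 CPM in the other controls.

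No autophagy or mitophagy gene was called. All 41 passed the filter on low counts, and 0 had an adjusted p below 0.01 or below 0.05 in edgeR, with a smallest value of 0.0573. Across all genes 3 were called at 0.01 (0.0233%) and 152 at 0.05 (1.18%). At an unadjusted p below 0.05 there were 11 of the 41 (26.8%), against 24.5% of all genes tested. Of these 9 were lower in mAktDKO (22.0%, against 13.1% of all genes) and 2 higher (4.88%, against 11.4%). DESeq2's Wald test called 2 (4.88%), Tfeb and Map1lc3a, both lower, where it called 341 of the 9616 genes it gave an adjusted p (3.55%), 251 of them lower (2.61%). The share in both directions together was near that of all genes. The split by direction turned with the scaling, with 2 lower (Tfeb and Map1lc3a; 4.88%, against 5.03% of all genes) and 6 higher (Atg3, Bnip3l, Gabarapl1, Rb1cc1, Tax1bp1 and Tfe3; 14.6%, against 23.0%) when libraries were scaled by their totals. Leaving out control mouse 2 gave 6 lower (14.6%, against 10.2%) and 3 higher (7.32%, against 9.05%).

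Fold changes were small and mostly negative. Of the 41, 28 were negative and 13 positive (68.3% negative, against 47.5% of all genes tested), with a median of -0.10 against 0.02 for all genes, a lowest value of -0.57 (Tfeb) and a highest of 0.31 (Bnip3l). The 95% interval lay within 0.5 of 0 for 27 of them, and the difference of the means exceeded both group SDs for 18. The 3 mAktDKO values lay all above or all below the 3 control values for 12 genes (29.3%, against 31.1% of all genes tested), with 10 lower (24.4%, against 16.6%) and 2 higher (4.88%, against 14.6%).

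How many values were negative depended on the scaling and on control mouse 2. Scaling by library totals moved the median of all genes from 0.02 to 0.16 and that of the 41 to 0.04, with 17 negative and 24 positive, so that the distance of the 41 from all genes stayed at -0.12. Without control mouse 2 the median of the 41 was -0.01 against 0.02 for all genes, 23 were negative, and 20 had groups that did not overlap, where 38.7% of all genes did. With library totals the 10 genes lower without overlap were each nearer 0, at -0.43 for Tfeb, -0.37 for Map1lc3a, -0.19 for Atg4a, -0.16 for Atg101, -0.15 for Becn1, -0.13 for Atg4d, -0.12 for Fundc1, -0.11 for Atg16l1, -0.09 for Atg2a and -0.06 for Gabarapl2. The 2 higher ones were farther from it, at 0.45 for Bnip3l (adjusted p 0.0492) and 0.39 for Atg3.

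**Figure D2:**
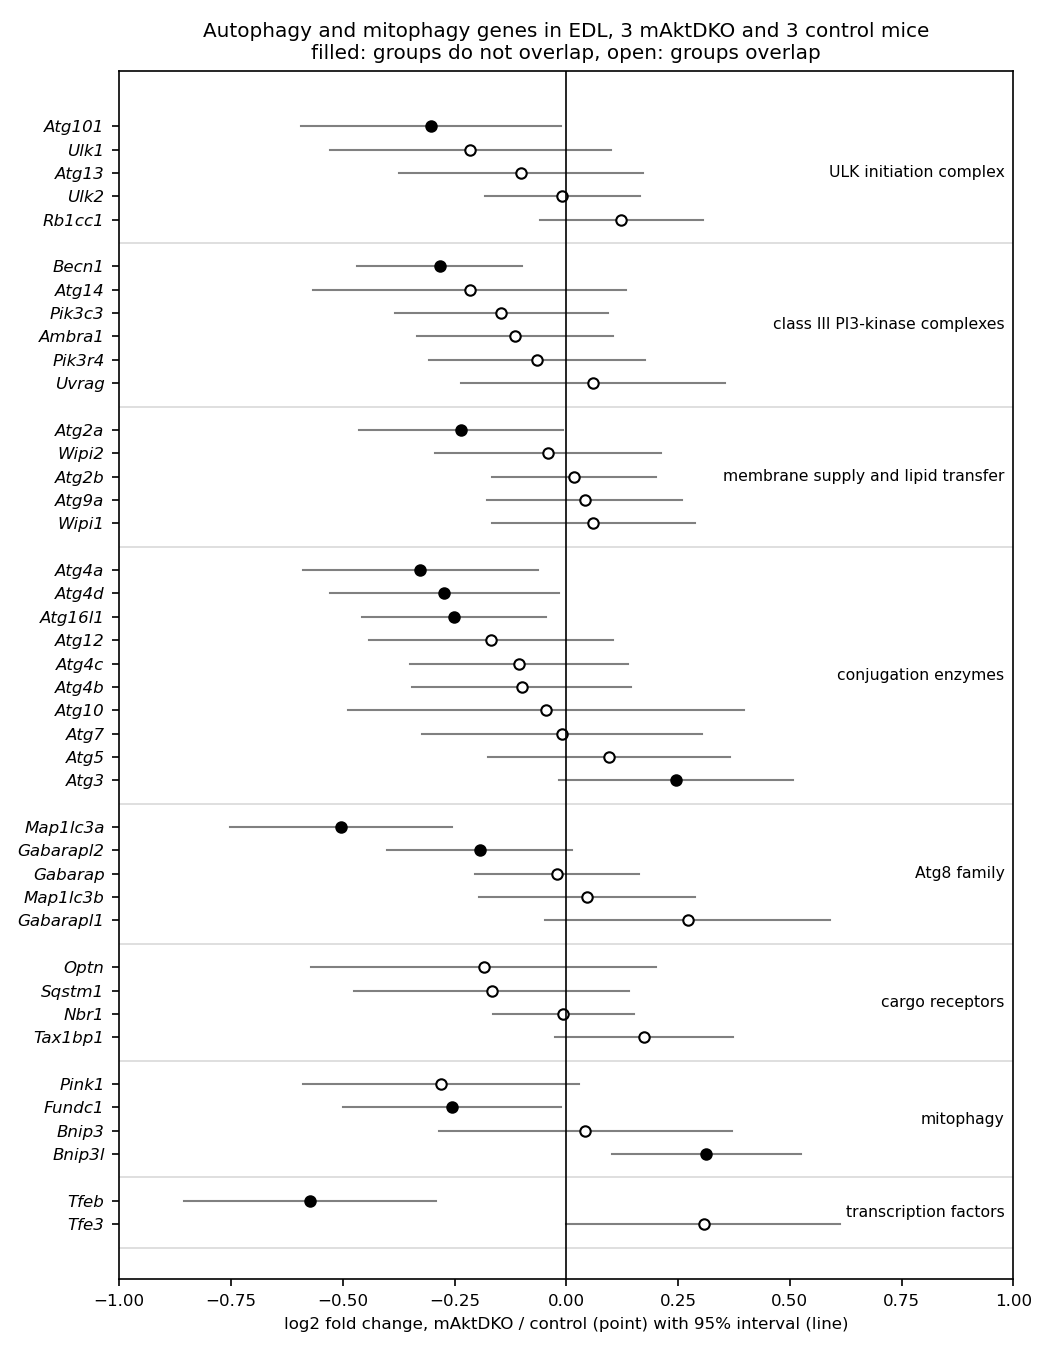
Log2 fold change of mAktDKO over control (point) with its 95% interval (line) for the 41 genes, by role, with filled points where the 3 mAktDKO and 3 control values do not overlap. Tfeb (-0.57) and Map1lc3a (-0.50) have the lowest values, and Bnip3l (0.31) and Tfe3 (0.31) the highest.

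The 2 transcription factors of the list went in opposite directions. Tfeb (chr17:47737030-47792419, GRCm38), a master regulator of lysosomal and autophagy genes that Akt and mTORC1 keep in the cytoplasm, read 35.6, 32.7 and 35.8 CPM in mAktDKO mice and 61.8, 44.4 and 48.6 CPM in control mice. Every mAktDKO mouse was below every control, and the difference between means was -32.8%. The log2 fold change was -0.57 (SE 0.124, 95% interval -0.85 to -0.29), the lowest of the list, with an adjusted p of 0.0573 in edgeR and 0.0032 in DESeq2. Without control mouse 2, the highest, it was -0.42 with an adjusted p of 0.0559, and with any single mouse left out it lay between -0.67 and -0.42 with adjusted p-values of 0.054 to 0.245. Tfe3, a close relative that binds the same DNA element, read 10.8, 13.0 and 11.2 CPM in mAktDKO and 10.9, 8.6 and 8.84 CPM in control mice. Its groups overlapped only through control mouse 2, and its log2 fold change was 0.31 (SE 0.135, adjusted p 0.203), or 0.42 without that mouse.

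TFEB and TFE3 bind E-box elements with the core CACGTG, so the promoters of the autophagy genes that hold this core are shown. RefSeq promoter windows of GRCm38.p6, from 250 bases before to 50 after a transcription start, were matched by symbol for 34 of the 41 genes, and Atg12, Atg16l1, Becn1, Bnip3l, Map1lc3a, Pik3c3 and Rb1cc1 were not matched. CACGTG, which reads the same on both strands, was present for 5 of the 34 (14.7%, against 8.09% of all 27025 genes with a window). The windows below are written 5′ to 3′ on the gene's strand with the core in capitals, at chr6:114670944-114670989 (plus strand), chr7:138909589-138909634 (minus), chr10:44268305-44268338 (plus), chr14:47568418-47568447 (minus) and chr16:45158715-45158783 (plus).
Atg7: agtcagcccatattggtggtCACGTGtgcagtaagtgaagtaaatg
Bnip3: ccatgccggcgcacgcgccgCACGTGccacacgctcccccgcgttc
Atg5: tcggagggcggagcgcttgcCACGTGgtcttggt
Atg14: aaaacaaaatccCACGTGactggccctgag
Atg3: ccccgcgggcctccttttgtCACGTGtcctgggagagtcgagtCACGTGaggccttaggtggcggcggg

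The core began 132 bases before the start in Atg7, 108 in Bnip3, 14 in Atg5, 1 in Atg14 and 94 and 71 in Atg3. With a T on its 5′ side (TCACGTG or its reverse complement CACGTGA) it occurred in Atg14, Atg3 and Atg7, and as the full palindrome TCACGTGA only in Atg3 among the 34 genes (2.94%, against 1.12% of all genes). The log2 fold changes of these 5 genes were -0.01 for Atg7, 0.04 for Bnip3, 0.10 for Atg5, -0.22 for Atg14 and 0.25 for Atg3. Genes with the core were thus found on both sides of 0. Without control mouse 2 these values were 0.10, 0.22, 0.08, -0.13 and 0.25, with Atg14 alone negative. The FoxO core GTAAACA (reverse complement TGTTTAC) was in 0 of the 41 windows of the 34 matched genes and in 3.65% of all windows. At that share, and with no window for Bnip3l and the other unmatched genes, a count of 0 carries little weight. A match or its lack in this window describes letters only.

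In the ULK initiation complex, which receives the nutrient signal, 4 of 5 genes had negative fold changes (median -0.10) and none was called. Atg101, which stabilises ATG13 in the complex, read 12, 10.4 and 11.2 CPM in mAktDKO and 15.9, 13.6 and 12 CPM in control mice. The groups were separate by less than the rounding, with a log2 fold change of -0.30 (SE 0.129, adjusted p 0.189), and -0.19 without control mouse 2. Ulk1, the kinase inhibited by mTORC1, read 69.4, 66.7 and 83.7 against 103, 77.7 and 74.2 CPM. Its groups overlapped, and its log2 fold change of -0.21 (adjusted p 0.36) was -0.05 without control mouse 2 and -0.34 without mAktDKO mouse 3. Rb1cc1, which encodes the scaffold FIP200, read 147, 165 and 159 against 137, 147 and 148 CPM, a log2 fold change of 0.12 (adjusted p 0.363). Ulk2, the second kinase, was at -0.01, and at -0.000738 without control mouse 2. Atg13, at -0.10, was at 0.02 without that mouse.

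Of the 6 class III PI3-kinase genes, 5 had negative fold changes (median -0.13). Becn1 (chr11:101285952-101302286), the regulatory subunit Beclin 1, read 43.5, 38.5 and 40.3 CPM in mAktDKO and 48.2, 51.1 and 49.6 CPM in control mice. All mAktDKO values were below all control values, by -17.8% on the means, with a log2 fold change of -0.28 (SE 0.0812, adjusted p 0.0922). Here control mouse 2 was the lowest control, and without it the value was -0.31. Becn1 overlaps exons of Cntd1 on the opposite strand, as 12 other genes of the list (Rb1cc1, Atg14, Uvrag, Atg2b, Atg9a, Atg4d, Map1lc3b, Gabarapl1, Sqstm1, Optn, Tax1bp1 and Bnip3) overlap a gene there. Whether counting used strand is not given in the sources used here, so these 13 values may include reads of the partner gene. Atg9a (Gm29253) and Pink1 (Gm27646 and Mir7019) also overlap exons of genes on the same strand, where strand does not separate reads. Atg14, the subunit that directs the complex to autophagosomes, read 6.84, 7 and 9.25 against 9.92, 8.31 and 8.54 CPM (-0.22, adjusted p 0.407), and Pik3c3, the lipid kinase itself, 17.0, 14.4 and 15.1 against 18.3, 16.8 and 16.3 CPM (-0.15, adjusted p 0.416). The groups overlapped for both, and without control mouse 2 the values were -0.13 and -0.10. Atg14 was at -0.38 without mAktDKO mouse 3 and -0.14 without mAktDKO mouse 1, and Pik3c3 at -0.09 without mAktDKO mouse 2. Ambra1 was at -0.11 (-0.05 without that mouse), Pik3r4 at -0.07 (-0.01) and Uvrag, the subunit of the endosomal complex, at 0.06 (0.20).

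Membrane supply was near 0, with 2 negative and 3 positive fold changes and a median of 0.02. Atg2a, a lipid transfer protein that feeds the growing membrane, read 32.3, 32 and 30.8 CPM in mAktDKO and 42.6, 34.6 and 34.8 CPM in control mice. The groups did not overlap, and the log2 fold change of -0.24 (SE 0.101, adjusted p 0.193) was -0.13 without control mouse 2. Its paralogue Atg2b was at 0.02 (0.07 without that mouse). Wipi1, which binds phosphatidylinositol 3-phosphate, read 34.7, 39.9 and 42.1 against 40.5, 35.4 and 36 CPM (0.06, adjusted p 0.739), and Atg9a, the membrane protein of the seeding vesicles, 138, 138 and 155 against 156, 131 and 132 CPM (0.04, adjusted p 0.82). Groups overlapped for both, the sign changed when single mice were left out, and without control mouse 2 the values were 0.12 and 0.13. Wipi2, which recruits the ATG16L1 complex, was at -0.04, and at 0.08 without that mouse.

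Among the 10 conjugation enzymes 8 had negative fold changes (median -0.10), 3 of them at an unadjusted p below 0.05, or 30% beside the 13.1% of all genes that were lower at that level. Those 3 were Atg16l1, which places the conjugation reaction on the membrane, and 2 of the 4 Atg4 proteases. These proteases trim Atg8 proteins before conjugation and release them afterwards. With library totals only Map1lc3a and Tfeb of the 41 genes were lower at that level, and Atg3 was higher. Without control mouse 2 the conjugation genes lower at that level were Atg12 and Atg16l1, where 10.2% of all genes were lower. Atg4a (chrX:140956907-141164270) read 12.4, 15.3 and 13.9 CPM in mAktDKO and 18.8, 17.3 and 16 CPM in control mice. The groups did not overlap, the means differed by -20.3%, and the log2 fold change was -0.33 (SE 0.116, adjusted p 0.14), with a range of -0.41 to -0.25 when single mice were left out. Atg4d read 27.2, 24.5 and 28.1 against 37.0, 28.7 and 30.6 CPM, again without overlap (-0.27, adjusted p 0.181, and -0.16 without control mouse 2). The other proteases, Atg4b at -0.10 (-0.01 without that mouse) and Atg4c at -0.11 (-0.15 to -0.05 with single mice left out), had overlapping groups.

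Atg16l1 read 18, 19.2 and 17.4 CPM in mAktDKO and 21.0, 21.4 and 22.7 CPM in control mice. The groups did not overlap, with a log2 fold change of -0.25 (SE 0.0909, adjusted p 0.143) that was -0.27 without control mouse 2. Atg3, the E2-like enzyme for Atg8 proteins, was the one conjugation gene with all mAktDKO values above control, 14.7, 12.3 and 12.5 against 11.2, 11.6 and 10.4 CPM (0.25, adjusted p 0.227). Its fold change was 0.16 to 0.29 with single mice left out. Atg7, the E1-like enzyme, was at -0.01, Atg5 at 0.10, Atg10 at -0.04 and Atg12, the ubiquitin-like partner of ATG5, at -0.17, all with overlapping groups. Without control mouse 2 these 4 were at 0.10, 0.08, -0.14 and -0.285. With single mice left out, Atg7 ranged from -0.09 to 0.10 and Atg5 from 0.02 to 0.19. Atg10 then ranged from -0.14 to 0.16 and Atg12 from -0.285 to -0.06.

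**Figure D3:**
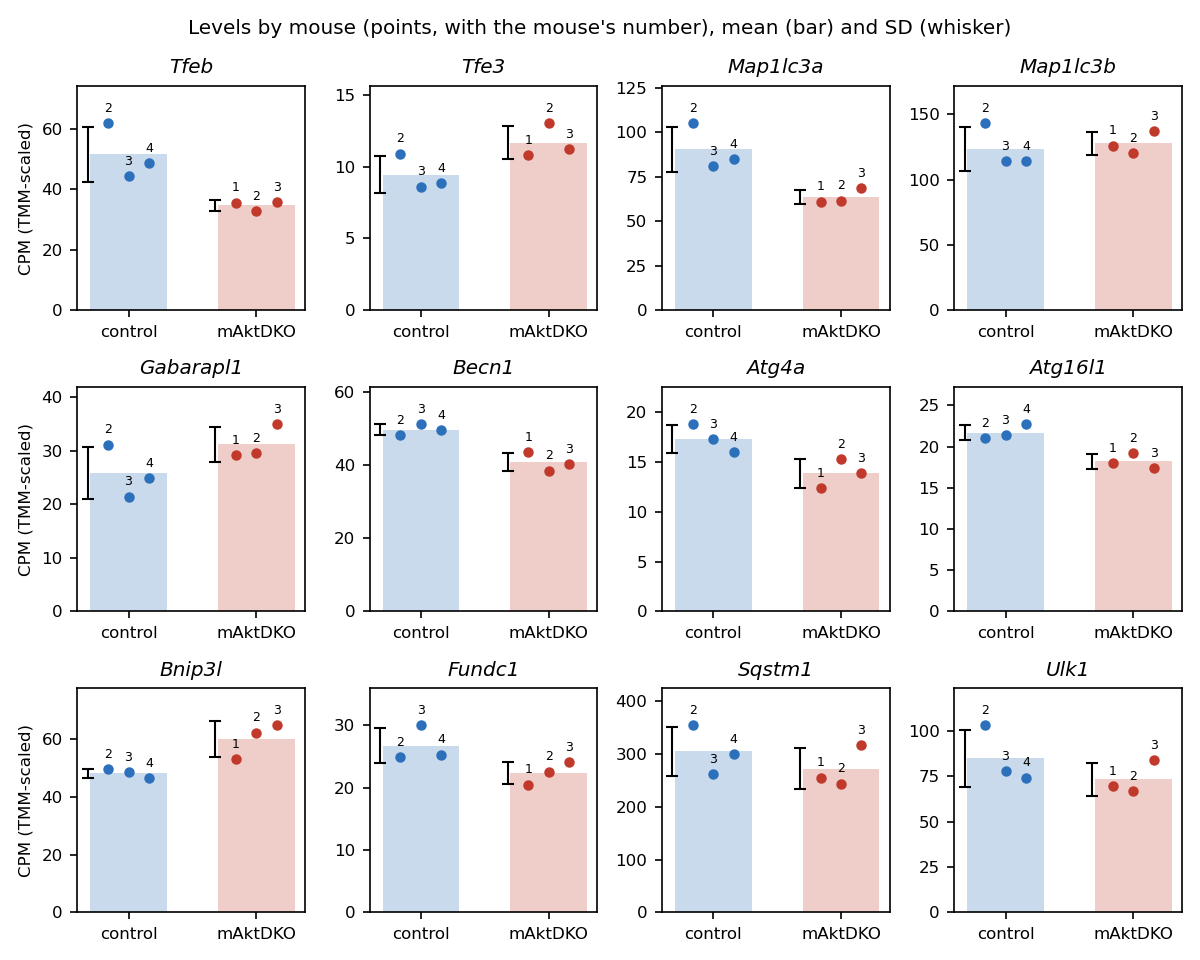
CPM in each mouse (points, numbered as in the table) for 12 of the genes, with the group mean (bar, from 0) and SD (whisker, n = 3 mice per group). Tfeb, Map1lc3a, Becn1, Atg4a, Atg16l1 and Fundc1 are lower in every mAktDKO mouse and Bnip3l is higher in every one, while Tfe3, Map1lc3b, Gabarapl1, Sqstm1 and Ulk1 overlap.

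The Atg8 family showed the clearest difference after Tfeb, in 1 of its 5 genes. Map1lc3a (chr2:155276297-155278073), which encodes LC3A, read 61.1, 61.7 and 68.5 CPM in mAktDKO and 105, 81.1 and 85.1 CPM in control mice. No mAktDKO mouse reached the lowest control, and the means differed by -29.5%. The log2 fold change was -0.50 (SE 0.11, 95% interval -0.75 to -0.26), with an adjusted p of 0.0573 in edgeR and 0.0033 in DESeq2, and it lay between -0.58 and -0.38 with any single mouse left out (adjusted p 0.0552 to 0.245). Without control mouse 2 it was -0.38, with an adjusted p of 0.0636.

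The other family members had smaller fold changes, in either direction. Map1lc3b, which encodes LC3B, the usual autophagosome marker, read 126, 120 and 137 against 143, 114 and 114 CPM, with overlapping groups and a log2 fold change of 0.05 (adjusted p 0.816, 95% interval -0.20 to 0.29) that turned negative when single mice were left out and was 0.16 without control mouse 2. Gabarapl1, a GABARAP-type member, read 29.1, 29.5 and 34.9 against 31.1, 21.4 and 24.9 CPM (0.27, adjusted p 0.265), and 0.43 without control mouse 2, which was the only control within the mAktDKO range. Without control mouse 3 or mAktDKO mouse 3 it was 0.15 or 0.17. Gabarapl2 read 43.3, 40.5 and 45.2 against 54.1, 46.7 and 46.8 CPM, without overlap (-0.19, adjusted p 0.225, and -0.12 without control mouse 2). Gabarap was at -0.02, and at 0.01 without that mouse.

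Levels of different genes were compared per transcript length, as CPM per kilobase. The summed level of the 5 Atg8 genes was 203, 196 and 216 CPM per kilobase in mAktDKO and 258, 208 and 221 in control mice, with overlap between the groups. Within that sum Map1lc3a took 27.1%, 28.3% and 28.5% in mAktDKO and 36.7%, 35.0% and 34.7% in control mice, or 27.9% ± 0.755 against 35.4% ± 1.07 (SD, n = 3 each), a difference of -7.48 points (exact two-sided permutation p 0.1, the smallest that 3 against 3 mice allow, and 0.167 adjusted over the 5 shares). Control mouse 2 had the highest Map1lc3a share, and the difference was -6.87 points without it. Shares of Map1lc3b (24.6% ± 0.348 against 21.3% ± 0.801) and Gabarapl1 (8.34% ± 0.488 against 6.15% ± 0.501) were higher in every mAktDKO mouse, by 3.28 and 2.19 points. Those of Gabarap (26.6% against 24.3%) and Gabarapl2 (12.5% against 12.8%) overlapped. For Gabarapl2 this depended on the length used, since its share was lower in every mAktDKO mouse without a length (-0.869 points) or with the median length of all coding transcripts (-0.623 points), against -0.326 points here. Shares of one sum are not independent of each other.

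**Figure D4:**
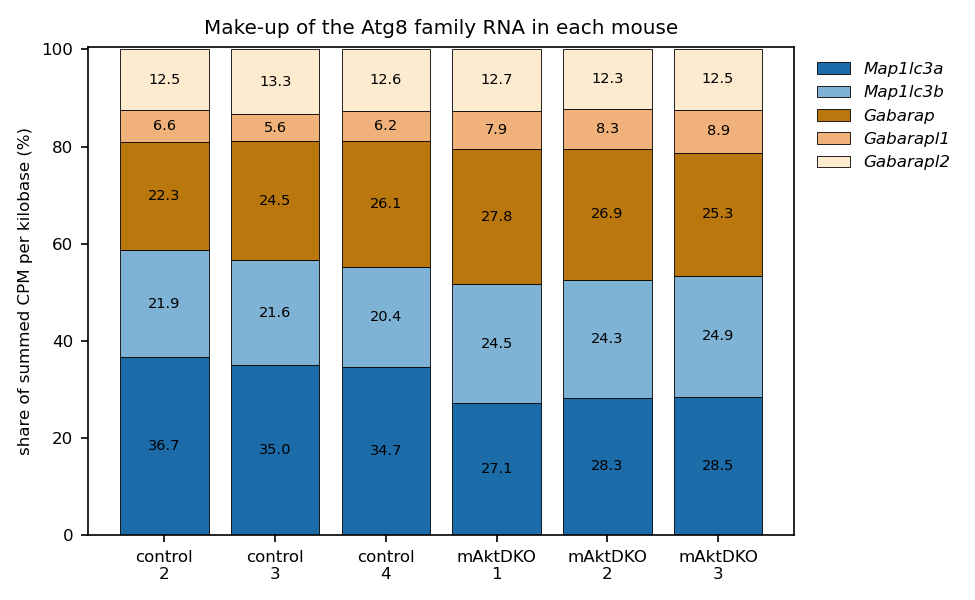
Share of each Atg8 family gene in the summed CPM per kilobase of the 5 genes (percent, stacked to 100) in each of the 6 mice. Map1lc3a takes 34.7% to 36.7% in the controls and 27.1% to 28.5% in the mAktDKO mice.

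Cargo receptors link ubiquitinated cargo to Atg8 proteins. Of the 4 genes, 3 had negative fold changes (median -0.09), 0 had separate groups and 0 had an unadjusted p below 0.05, where 31.1% and 24.5% of all genes did, so with 4 genes these counts of 0 carry little weight. Sqstm1, which encodes p62, read 255, 244 and 316 CPM in mAktDKO and 354, 262 and 299 CPM in control mice. Its log2 fold change of -0.17 (adjusted p 0.466) was -0.05 without control mouse 2, -0.10 without mAktDKO mouse 2, -0.31 without mAktDKO mouse 3 and -0.27 without control mouse 3. Tax1bp1 read 86.0, 102 and 102 against 84.8, 87.0 and 85.7 CPM, a log2 fold change of 0.17 (adjusted p 0.253) in which mAktDKO mouse 1 fell within the control range. Nbr1 was among the steadiest genes of the list, at 110 to 114 CPM in all 6 mice (-0.01, 95% interval -0.17 to 0.15). Optn, which also serves in mitophagy, was at -0.19 and reached 85.8 CPM in control mouse 2 against 53.1 and 58.6 CPM in the other controls. Without that mouse its value was 0.05.

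The mitophagy genes were split. Bnip3l (chr14:66985239-67008877), which encodes NIX, a receptor in the outer mitochondrial membrane and a known FoxO target, read 53.0, 62.2 and 64.7 CPM in mAktDKO and 49.6, 48.5 and 46.5 CPM in control mice. Every mAktDKO mouse was above every control, the means differed by 24.3%, and the log2 fold change was 0.31 (SE 0.0933, adjusted p 0.0998), and 0.33 without control mouse 2. Its paralogue Bnip3, also known as a FoxO target in muscle, read 166, 163 and 200 against 211, 147 and 155 CPM and overlapped (0.04, -0.07 to 0.22 with single mice left out, the highest without control mouse 2). Fundc1 (chrX:17556564-17572325), another outer-membrane receptor, read 20.5, 22.6 and 24.1 against 24.9, 30.0 and 25.3 CPM. All its mAktDKO values were below control (-0.26, SE 0.108, adjusted p 0.187), and the value was -0.17 without control mouse 3, the highest, and -0.31 without control mouse 2. Pink1, the kinase that accumulates on damaged mitochondria, read 386, 387 and 460 against 603, 432 and 461 CPM. Its groups overlapped, with a log2 fold change of -0.28 (adjusted p 0.239) that was -0.12 without control mouse 2. Whether Bnip3l and Fundc1 differed from each other in their response was not tested.

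By level per length, the same 6 genes led the list in both groups. In control muscle the order was Pink1 (210 CPM per kilobase), Sqstm1 (129), Bnip3 (97.3), Map1lc3a (81.3), Gabarap (55.4) and Map1lc3b (48.8). In mAktDKO muscle it was Pink1 (173), Sqstm1 (115), Bnip3 (100), Map1lc3a (57.3), Gabarap (54.6) and Map1lc3b (50.4). Pink1 was above Sqstm1 in every mouse of each group. Map1lc3a was above Gabarap without overlap in control mice (lowest 72.9 against highest 57.7), whereas in mAktDKO mice the ranges overlapped (54.9 to 61.6 against 52.7 to 56.4). The order of the Atg8 genes depended on the length used. With the median length of all coding transcripts, Gabarap was above Map1lc3a in every mAktDKO mouse (shares of 25.1% to 27.7% against 21% to 22%). Mean shares in mAktDKO mice were then 29.1% for Map1lc3b, 26.5% for Gabarap and 21.6% for Map1lc3a. In control mice they were 26.2%, 25.1% and 28.5%. At the low end stood Atg14 (2.59 in control, 2.23 in mAktDKO) and Atg7 (2.04 and 2.03). Neighbours in this order mostly did not differ beyond their spread, with overlapping ranges for 34 of 40 neighbouring pairs in control and 31 of 40 in mAktDKO mice. The median coefficient of variation over the 41 genes was 11.4% in control and 6.74% in mAktDKO mice, and higher in control for 29 genes. For controls 3 and 4 alone the median was 4.47%, with 14 genes above their mAktDKO value. That compares 2 control mice with 3 mAktDKO mice, and leaving out other mice was not tested for it.

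**Figure D5:**
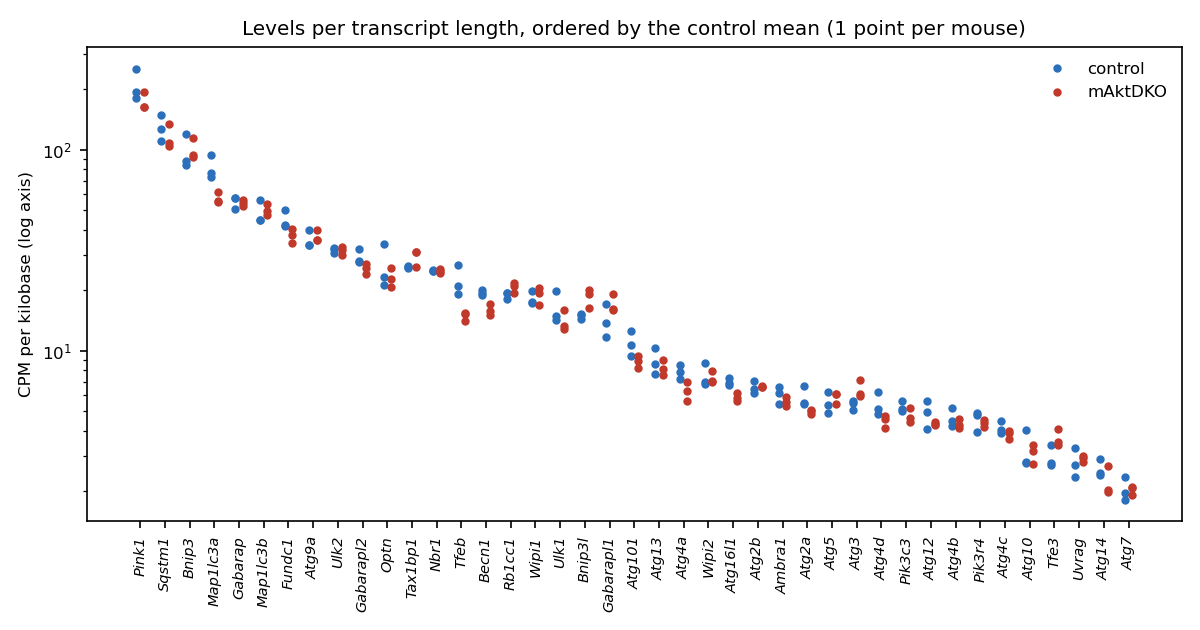
Level of each of the 41 genes in CPM per kilobase of transcript (log axis), 1 point per mouse, ordered by the control mean. Levels run from 210 (Pink1) to 2.04 (Atg7) in control, and most neighbouring genes overlap.

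Other genes of the pathway outside the list gave a like picture. Of 63 such genes, 62 were tested, all but Atg9b, and 0 were called by edgeR at 0.01 or 0.05 or by DESeq2 at 0.01. Below 0.05 in DESeq2 were Rragd (adjusted p 0.0116) and Dapk1 (0.0451), and in edgeR with library totals Ubqln2 (0.047). At an unadjusted p below 0.05 there were 17 (27.4%, against 24.5% of all genes), 12 lower (19.4%, against 13.1%) and 5 higher (8.06%, against 11.4%). The groups did not overlap for 24 (38.7%, against 31.1%), and the median fold change was -0.10 with 41 negative (66.1%, against 47.5%) and 21 positive. The 3 with the smallest p-values were Ubqln2, Rragd and Dapk1. Ubqln2, an adaptor between ubiquitin and degradation, read 30.2, 33.8 and 34.5 CPM in mAktDKO and 25.6, 26.2 and 26 CPM in control mice (0.34, adjusted p 0.0741). Rragd, a Rag GTPase that brings TFEB and mTORC1 to lysosomes and is itself a TFEB target, read 307, 299 and 340 against 417, 370 and 423 CPM (-0.35, adjusted p 0.0759). Its paralogue Rragc read 31.2, 34.8 and 32.4 against 26.3, 27.6 and 28 CPM (0.27, adjusted p 0.112). Dapk1, a kinase that phosphorylates Beclin 1, read 24.4, 24.4 and 23.3 against 13.1, 17.4 and 20.2 CPM (0.51, adjusted p 0.0913). The groups did not overlap for any of these 4, of which Rragc was chosen after its values were seen. Without control mouse 2 their fold changes were 0.33, -0.33, 0.35 and 0.24 in the order Ubqln2, Rragd, Dapk1 and Rragc. Of the 6 subgroup medians 5 were negative, and differences between subgroups were not tested. Fold changes were negative for 10 of 12 further mitophagy genes (median -0.24), with 5 lower at an unadjusted p below 0.05 (Fkbp8, Mul1, Pgam5, Bcl2l13 and Htra2; 41.7%, against 13.1% of all genes), for 10 of 11 genes of autophagosome fusion with lysosomes (median -0.16) and for 5 of 6 conjugation and Atg8 partners (median -0.18). They were negative for 6 of 12 initiation and PI3-kinase regulators (median -0.02) and 5 of 9 genes of transcription and nutrient sensing (median -0.07). Of the cargo and ER-phagy receptors, 5 of 12 were negative (median 0.04). At an unadjusted p below 0.05, 3 of these 12 were higher (25%, against 11.4% of all genes) and 2 lower (16.7%, against 13.1%). Leaving out control mouse 2, 38 of the 62 were negative (61.3%, against 47.2% of all genes), with a median of -0.06. At an unadjusted p below 0.05 there were then 5 lower (8.06%, against 10.2%) and 4 higher (6.45%, against 9.05%). The mitophagy median was -0.15 with 2 genes (Fkbp8 and Mul1) lower at that level (16.7%, against 10.2%). Of the fusion genes 8 of 11 were negative (median -0.14). Without that mouse the initiation, nutrient-sensing and receptor medians were 0.06, -0.04 and 0.09. With library totals, 25 of the 62 were negative (40.3%, against 29.6% of all genes). At an unadjusted p below 0.05, 1 was lower (1.61%, against 5.03%) and 14 were higher (22.6%, against 23.0%) with that scaling. The mitophagy, fusion and conjugation medians were -0.10, -0.02 and -0.04. The initiation, nutrient-sensing and receptor medians were then 0.12, 0.06 and 0.18, with 1 of 12, 3 of 9 and 3 of 12 genes negative. The summed fast-fibre markers given above were also lower in mAktDKO with TMM scaling, and their part in these values was not tested.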

How the data were processed

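RNA from the EDL of 3 mAktDKO and 3 control mice was sequenced by the authors from ribosomal RNA-depleted, directional libraries. The submitters' processing notes name STAR 2.6.1b, RSEM 1.3.1 and the mm10 build. The deposited table holds RSEM's estimated counts per gene symbol, not scaled between mice, and no columns of the authors' own comparisons. Its control columns are numbered 2 to 4 where the labelled samples are numbered 1 to 3, so each stands for its group only. Totals were 13738795 to 15445523, and between 3.36% and 4.09% of values per mouse were not whole.

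Estimated counts were rounded to whole numbers, filtered with filterByExpr (minimum count 10), TMM-scaled and tested with edgeR 4.0.16 in R 4.3.3 (quasi-likelihood test, Benjamini-Hochberg adjustment over 12892 genes, called below 0.01), and checked on simulated data. The study's methods name DESeq2, which (1.42.0) was an alternative, with 3 other scalings, no count filter, a threshold of 0.05 and leaving out each mouse in turn. Shares were compared by exact permutation tests. Transcript lengths were medians of the RefSeq-linked transcripts in GENCODE's GRCm38 annotation, which also gave gene coordinates. Promoter windows came from RefSeq (GRCm38.p6).

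The genes and lists were chosen with earlier results of these data known. Genes named with full values were those with an adjusted p below 0.05, the smallest p-values in each role group (3 in groups of 5 or more genes, otherwise 2), Atg4a and Map1lc3b, Akt1 and Akt2, and the 3 smallest p-values among the other autophagy genes. Further genes of the list are given by their fold change, with levels added after they were seen for Atg3, Nbr1, Optn, Bnip3 and Pink1. Labels do not say more of the replicates than that they are separate samples, taken here as separate mice.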

Additional observations from a re-analysis of the deposited data

How the results depend on the processing

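The count of all genes called was 3 with each scaling, 341 with DESeq2, 32 of 17360 with no count filter, 152 at an adjusted p below 0.05, and 0 to 8 when single mice were left out. Autophagy and mitophagy genes called were 0 throughout, leave-one-out fits included, except for the 2 DESeq2 calls, Map1lc3a (-0.51, adjusted p 0.0033) and Tfeb (-0.58, adjusted p 0.0032). At the 0.05 threshold the count was also 0 with TMM, 2 with no count filter and 1, Bnip3l, with library totals. The other 63 autophagy genes gave 0 calls at 0.01 in every setting run. Genes with separate groups numbered 12, or 13 to 20 with single mice left out (20 without control mouse 2), while the share of all genes was 31.1%, and 35.8% to 44.5% with fewer mice. They numbered 10 with library totals (33.4% of all genes) and 13 with upper-quartile scaling (31.1%), and with DESeq2 or no count filter 12 again, beside 25.2% and 25.3% of the larger sets of genes tested. The median fold change was -0.10, 0.0382 with library totals, where that of all genes was 0.16, and -0.13 to -0.01 with single mice left out. The Map1lc3a share differed by -7.48 points, -6.02 without length, -6.82 with the median of all coding transcripts as length, an alternative chosen after seeing the data, and -7.87 to -6.87 with single mice left out.

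Among single genes, 28 of 41 kept their direction with every mouse left out in turn, and the sign of 13 changed at least once (Ulk2, Atg13, Uvrag, Atg2b, Atg9a, Wipi1, Wipi2, Atg7, Atg10, Map1lc3b, Gabarap, Optn and Bnip3). Of those named by rule it reversed for Wipi1 without mAktDKO mouse 3 (-0.0148, range to 0.135 over the mice left out), and for Atg9a (range -0.0313 to 0.127) and Map1lc3b (-0.0198 to 0.162) without mAktDKO mouse 3, control 3 or control 4. Akt2 was -1.59 to -1.52 with an mAktDKO mouse left out (adjusted p 0.0165 to 0.0208, above 0.01). The causes of these shifts were not tested. With 3 mice per group a smallest permutation p of 0.1 limits the share comparisons. No paired analysis was possible because numbers 2 to 4 head the control columns while the labels number those mice 1 to 3, and no source ties mice across groups.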
